A study of Homo sapiens with 6 samples.

Results

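AP-1 is a family of dimeric transcription factors, and the 10 of its genes described here are JUN, JUNB, JUND, FOS, FOSB, FOSL1, FOSL2, ATF3, BATF and BATF3. They were chosen by name from 33616 genes with a single-symbol probe set, and each had 1 such probe set on the array. Of the 10, JUN, JUNB, JUND, FOSL2, ATF3 and BATF3 had a mean over the 6 arrays at or above 3.77, the median over all probe sets, and were among the 21070 genes tested. FOS, FOSB, FOSL1 and BATF lay under it. The cells were LP-1, an established human multiple myeloma line that stands for malignant plasma cells. Short-term acid culture (S.A., SA here) used medium at pHe 6.8, pHe being the pH outside the cells, and its samples carry the time label 2 weeks. Long-term acid culture (L.A., LA here) used the same pHe of 6.8, labelled 9 months. Control culture (Ctrl) was kept at pHe 7.4 and is also labelled 9 months. Each group had 2 arrays, called biological replicates, with nothing on whether they came from separate cultures, so p-values measure only the spread between these arrays. For LA, the sample descriptions give 8 to 10 weeks in place of the months in the series design, and SA differed from Ctrl in time in culture as well as in pHe. All groups grew in the same serum-supplemented RPMI-1640 medium, and 1 cell line limits the results to that line.

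AP-1 proteins join through a leucine zipper and bind DNA as pairs. JUN proteins can pair with each other or with FOS proteins, whereas FOS proteins need a partner from another subfamily. JUN and FOS are immediate early genes, switched on within minutes of a growth or stress signal, and JUN is phosphorylated by the JNK kinases. ATF3 is induced by many stresses, the ATF4 pathway among them. BATF and BATF3 lack a transactivation domain and act in lymphoid and dendritic cells together with IRF factors.

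The array medians lay between 3.77 and 3.80. All 8 plasma cell markers were at or above the filter, with summed log2 values of 120.7 to 121.3 in SA, 118 to 118.6 in LA and 117.6 to 117.8 in Ctrl. With limma, 3 of these 8 were called higher and 0 lower in SA than in Ctrl, 1 higher and 0 lower in LA than in Ctrl, and 1 higher and 1 lower in LA than in SA, and their part in the results on AP-1 genes was not tested. Over all genes tested, limma called 6.23% higher and 8.55% lower in SA than in Ctrl. The shares higher and lower were 1.61% and 1.59% in LA against Ctrl, and 8.70% and 7.24% in LA against SA. Of markers of T and NK cells, monocytes and fibroblasts, 3 of 6, 2 of 5 and 3 of 4 with a probe set reached the filter, 0 were called in any comparison, and CD3D, CD8A, GNLY, CD14, LYZ, FCGR3A and PDGFRB lay under it. The summed T and NK cell values were 23.5 to 23.8 in SA, 24.2 to 24.8 in LA and 23.5 to 24.1 in Ctrl. The summed monocyte values were 17.9 to 18.6 in SA, 18 to 18.5 in LA and 18.6 to 18.8 in Ctrl. The summed fibroblast values were 19.3 to 19.7 in SA, 19.6 to 20 in LA and 19.2 to 19.9 in Ctrl.

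JUN, the subunit for which AP-1 dimers are best known, was the JUN family member with the largest response. On the log2 scale it stood at 12.43 and 12.66 on the SA arrays, 10.75 and 10.12 on the LA arrays and 9.30 and 9.67 on the Ctrl arrays. No groups overlapped, with SA at the top, LA between and Ctrl at the bottom. JUN rose in SA by 3.06 ± 0.26 over Ctrl (log2 difference ± SE, n = 2 each), which is 8.34-fold if the log base is 2, with a limma adjusted p of 0.00293. In LA it was lower than in SA by a log2 difference of -2.11 ± 0.26 (limma adjusted p = 0.005). LA against Ctrl differed by 0.95, with a 95% interval of 0.33 to 1.57, and was not called (limma adjusted p = 0.115). It was 0.63 without LA replicate 1 and 1.27 without LA replicate 2 (limma adjusted p = 0.392 and 0.0958). In bulk RNA such as this, a change in the number of cells of a kind and a change in RNA per cell cannot be told apart.

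ATF3 was also higher in SA than in Ctrl, and in LA it lay at the Ctrl values. This stress-induced CREB/ATF family factor was at 8.37 and 9.02 in SA, 5.30 and 5.18 in LA and 5.60 and 5.12 in Ctrl. Both SA arrays lay far above the others, and the LA arrays fell inside the range of the Ctrl arrays. ATF3 rose in SA by 3.34 ± 0.27 over Ctrl (10.1-fold, limma adjusted p = 0.0026) and was lower in LA than in SA by -3.46 ± 0.27 (limma adjusted p = 0.00138). LA minus Ctrl was -0.12, with a 95% interval of -0.76 to 0.53. Without detection calls, the ATF3 values in LA and Ctrl were not shown to be above background. By absolute SA minus Ctrl difference, ATF3 ranked 40 and JUN 55 of the 21070 genes tested.

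JUND, a JUN family member usually expressed at steady levels, had another pattern. It was at 10.12 and 10.28 in SA, 9.13 and 8.89 in LA and 9.69 and 9.80 in Ctrl. No groups overlapped, with SA highest and LA below Ctrl. JUND fell in LA against SA by 1.19 ± 0.16 on the log2 scale (limma adjusted p = 0.00647). Against Ctrl, SA differed by 0.45 (95% interval 0.07 to 0.83, limma adjusted p = 0.11) and LA by -0.73 (-1.12 to -0.35, limma adjusted p = 0.0685), and neither was called.

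The promoters of these 3 genes are shown because all 3 fell in LA against SA, and JUN and ATF3 rose in SA over Ctrl. Each line gives the 250 bases before the RefSeq start site, 5′ to 3′ on the gene's strand, in GRCh38.p14. The JUN window is chr1:58784048-58784297 on the minus strand, the ATF3 window chr1:212565157-212565406 on the plus strand, at the first of its 2 listed starts, and the JUND window chr19:18281623-18281872 on the minus strand. Capitals mark matches on either strand to AP-1 and ATF motifs among those searched.
JUN: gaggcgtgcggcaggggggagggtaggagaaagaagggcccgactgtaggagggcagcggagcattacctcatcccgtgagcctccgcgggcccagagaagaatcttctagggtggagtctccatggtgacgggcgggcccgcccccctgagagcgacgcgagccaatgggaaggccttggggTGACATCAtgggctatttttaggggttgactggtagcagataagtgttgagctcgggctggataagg
ATF3: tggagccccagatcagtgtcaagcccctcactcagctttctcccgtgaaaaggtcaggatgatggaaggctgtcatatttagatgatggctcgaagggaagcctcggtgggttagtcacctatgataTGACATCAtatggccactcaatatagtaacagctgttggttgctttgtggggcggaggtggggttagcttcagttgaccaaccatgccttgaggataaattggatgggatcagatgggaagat
JUND: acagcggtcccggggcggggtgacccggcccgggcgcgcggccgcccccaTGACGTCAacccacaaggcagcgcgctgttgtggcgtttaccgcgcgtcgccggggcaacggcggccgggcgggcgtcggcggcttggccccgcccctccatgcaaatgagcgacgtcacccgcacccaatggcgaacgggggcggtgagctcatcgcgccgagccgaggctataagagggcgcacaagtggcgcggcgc

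The JUN and ATF3 windows each held 1 match to TGACATCA, the variant AP-1 site known from the JUN promoter, starting 67 bases before the JUN start and 123 before the ATF3 start. That motif was in 2.37% of the 35116 RefSeq promoter windows of this length. The JUND window held TGACGTCA, the cyclic AMP response element, 200 bases before the start, and 1.65% of all windows held it. The palindrome reads the same on both strands. The classical site TGACTCA (4.2% of windows), the ATF4 type element TGATGCAA (0.772%), TATAAA (10.7%) and the CArG box (1.16%) were searched as well, on both strands, and these letters were not in the 3 windows shown. GGGCGG, the GC box (42.6% of windows), matched 2 times for JUN, 1 time for ATF3 and 5 times for JUND, left in lower case. No match of one motif overlapped one of another in these 3 windows. The second ATF3 window held TATAAA starting 230 bases before the start and no other motif. Only these 2 listed ATF3 starts were searched, so the windows do not describe any other start of that gene. RefSeq windows were matched for 8 of the 10 members, without FOSL1 and BATF3; TATAAA was in those of JUNB, FOS and FOSB, 31, 33 and 30 bases before the start. These matches are a description of letters and were not tested against the expression values.

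JUNB, FOSL2 and BATF3 passed the filter and were called in no comparison. JUNB, often induced together with FOS, was at 4.93 and 4.88 in SA, 4.87 and 4.74 in LA and 4.84 and 5.00 in Ctrl. The SA values lay inside the Ctrl range, and LA lay just under SA. Its SA minus Ctrl difference was -0.01, with a 95% interval of -0.36 to 0.33. A rise of the measured value of the size seen for JUN lay outside the interval. JUNB was not shown to be above background, so this sets no limit on a change of the transcript. FOSL2, the FOS family member FRA-2, was at 5.33 and 5.44 in SA, 5.31 and 4.83 in LA and 5.25 and 5.59 in Ctrl. Its groups overlapped, apart from LA lying below SA, and the 95% intervals were -0.57 to 0.49 for SA minus Ctrl and -0.88 to 0.18 for LA minus Ctrl. BATF3, known from mouse as a factor needed by cross-presenting dendritic cells, was at 4.55 and 5.09 in SA, 5.21 and 4.79 in LA and 4.78 and 4.72 in Ctrl. Its SA arrays enclosed the Ctrl values, and the SA minus Ctrl interval was -0.51 to 0.64. FOSL2 and BATF3 were not shown to be above background either.

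The FOS subfamily members FOS, FOSB and FOSL1 stayed at or under the array median in nearly all samples. FOS, the partner in the classical JUN-FOS dimer, was at 3.61 and 3.62 in SA, 3.88 and 3.62 in LA and 3.46 and 3.76 in Ctrl, with 1 of 6 arrays at or above 3.77. FOSB ranged from 3.20 to 3.50 and FOSL1, the protein FRA-1, from 2.94 to 3.36 over the 6 arrays, with 0 arrays at or above 3.77. The groups overlapped for all 3 genes. Detection calls were not used here, so these values do not show whether the transcripts were present. In limma without the filter, the SA minus Ctrl intervals were -0.39 to 0.41 for FOS, -0.45 to 0.27 for FOSB and -0.44 to 0.52 for FOSL1. At values not shown to be above background, these intervals describe the measured values and set no limit on a change of the transcripts.

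BATF, which pairs with JUN proteins and binds DNA with IRF4, lay just under the filter, with a mean of 3.74 over the 6 arrays, and BATF3 at 4.85 was the lowest member above it. BATF was at 3.47 and 3.50 in SA, 4.27 and 3.90 in LA and 3.49 and 3.83 in Ctrl. LA lay above both other groups. LA minus SA was 0.60 and LA minus Ctrl 0.42, and in limma without the filter the adjusted p-values were 0.117 and 0.331.

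**Figure D1:**
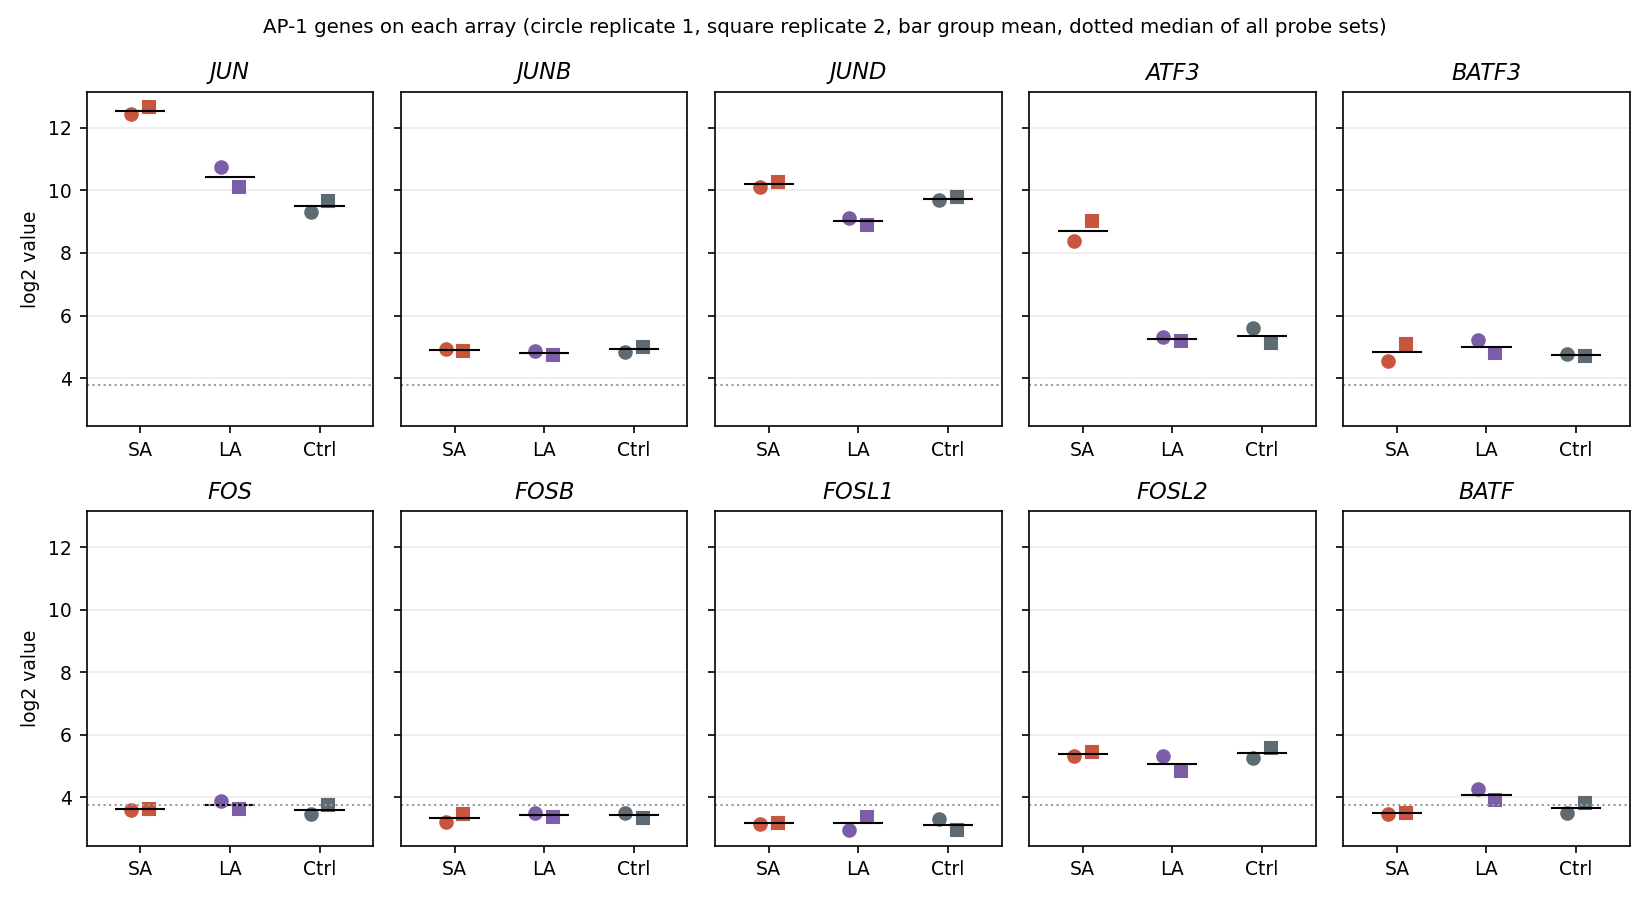
The log2 value of each AP-1 gene on each array is plotted on a common vertical axis, with SA, LA and Ctrl from left to right, circles and squares for replicates 1 and 2, bars for group means and a dotted line at 3.77, the median over all probe sets. JUN and ATF3 are highest on the SA arrays, JUND is lowest on the LA arrays, and FOS, FOSB and FOSL1 lie at or near the dotted line or under it.

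Counted over the 6 members tested, JUN and ATF3 were called higher in SA than in Ctrl and 0 were lower, where limma called 6.23% of all genes higher and 8.55% lower. The median SA minus Ctrl difference was 0.26 over the 6 members and -0.04 over all genes tested. In LA against Ctrl, limma called 0 members, with 1.61% of all genes higher and 1.59% lower. There 2 members, JUN and JUND, had an unadjusted limma p under 0.05, and the share of all genes under it is not given. In LA against SA, JUN, JUND and ATF3 were lower and 0 were higher, beside 7.24% of all genes lower and 8.70% higher. After a further quantile normalization, which of these was larger turned, with 1771 genes lower and 1509 higher. The median LA minus SA difference was -0.75 over the members and 0.01 over all genes tested. The first 2 comparisons share the Ctrl arrays, and LA minus SA equals LA minus Ctrl less SA minus Ctrl, so the values are not independent. The calls of JUN and ATF3 in SA minus Ctrl and in LA minus SA rest on the same SA arrays.

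Of the spread between arrays of a group (the sum of squares over the 21070 genes tested), 1.18% went with the replicate number, where 33.3% would be its even portion. The fit used here has 3 residual degrees of freedom and a fit with the replicate number 2, so SDs, SEs and p-values without the block tend to be too small. With replicate number as a block, the same members were called in each comparison. Those limma adjusted p-values were 0.00208 for JUN and 0.00153 for ATF3 in SA minus Ctrl, and 0.0053 for JUN, 0.000601 for ATF3 and 0.0215 for JUND in LA minus SA. Without the block they were 0.00293, 0.0026, 0.005, 0.00138 and 0.00647 in that order. The block value was thus smaller for ATF3 in both comparisons and for JUN in SA minus Ctrl. The SEs of JUN and ATF3 were larger with the block, 0.30 against 0.26 and 0.27. The background with the block was 2.90% higher and 3.49% lower in SA minus Ctrl, 0.769% and 0.555% in LA minus Ctrl, and 4.85% and 3.80% in LA minus SA. Under the block the lower end of the JUND interval in SA minus Ctrl was -0.10, below 0.

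**Figure D2:**
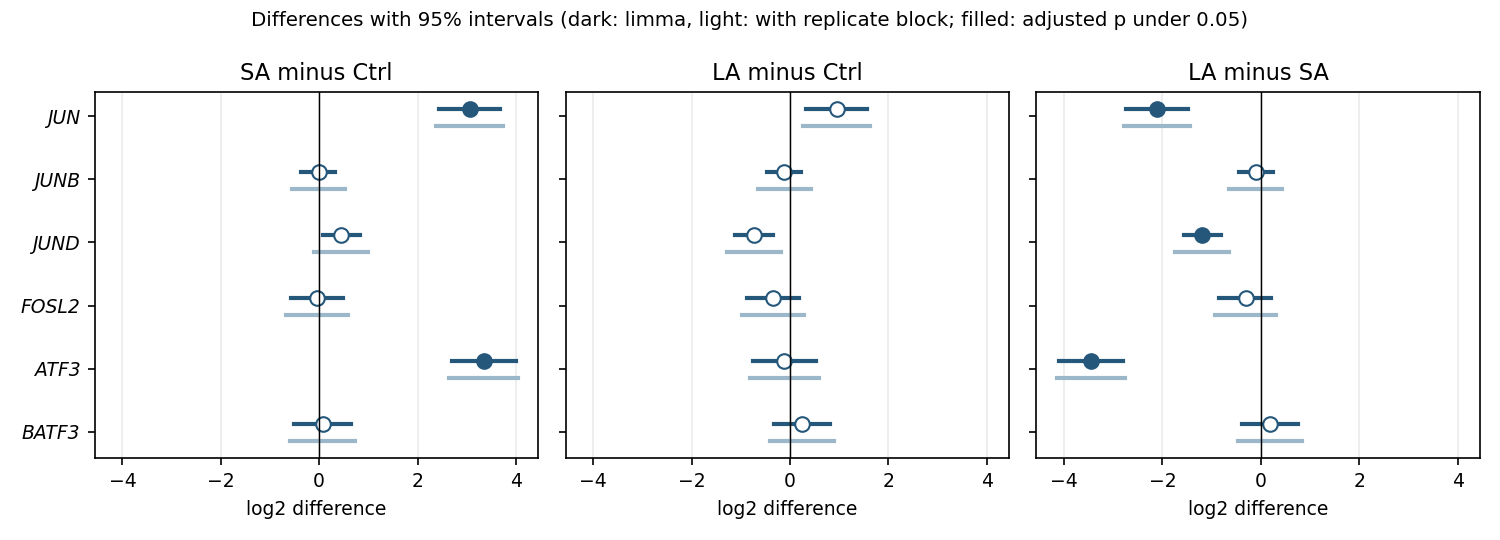
The log2 differences of the 6 members tested are plotted for the 3 comparisons, with dark 95% intervals from limma, light ones from limma with the replicate block, and filled points where the adjusted p was under 0.05. JUN and ATF3 lie near 3.06 and 3.34 in SA minus Ctrl, no member is filled in LA minus Ctrl, and JUN, ATF3 and JUND lie below 0 in LA minus SA.

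The genes beside the responding members on the chromosome were not called in any comparison. Next to JUN on chromosome 1, by RefSeq gene order, the nearest genes tested were MYSM1, a histone deubiquitinase, and LINC01358, each at 0.22 in SA minus Ctrl. In LA minus SA these 2 stood at 0.69 and 0.66, opposite in sign to JUN (limma adjusted p = 0.0799 and 0.0578). In LA minus Ctrl they stood at 0.91 and 0.88, the same sign as the 0.95 of JUN and close to it in size (limma adjusted p = 0.0824, 0.063 and 0.115 for MYSM1, LINC01358 and JUN). ATF3 lies between NENF, at 0.16 in SA minus Ctrl, and BATF3, at 0.07, with GARIN4 the 1 protein-coding gene between ATF3 and BATF3. The neighbours of JUND, RAB3A and RPL39P38, differed in LA minus SA by 0.27 and -0.03. FOS and BATF are also close, on chromosome 14, with JDP2, a repressive AP-1 partner, as the 1 protein-coding gene between them, and all 3 lay under the filter.

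Some genes followed the responding members closely over the 6 arrays. Nearness was the Euclidean distance between log2 profiles, each centred on its own mean, over 6 arrays in 3 groups, so it mostly reflects the group means. Nearest to ATF3 was FBXO32, a ubiquitin ligase subunit, at a distance of 0.30, with 12.25 and 12.74 in SA, 8.81 and 8.92 in LA and 9.32 and 8.66 in Ctrl. PLAAT2 at 0.64, the pro-apoptotic BH3-only gene BMF at 0.68, PLEK at 0.75 and STEAP1B at 0.76 came next. Nearest to JUN was PMAIP1, the BH3-only protein NOXA, at 0.70, with 7.50 and 7.18 in SA, 5.09 and 5.18 in LA and 4.32 and 4.54 in Ctrl. RUNX2, a transcription factor of bone formation, followed at 0.78, STEAP1 at 0.80, SLC44A5 at 0.81 and LOC730101 at 0.85. These genes repeat the order SA above LA above Ctrl, which follows from their choice by nearness to JUN.

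Nearest to JUND were the autophagy protease ATG4A at a distance of 0.18, the lysosomal sialidase NEU1 at 0.22, and EPG5, MGAT3 and TRMT5 at 0.24 each. ATG4A was at 11.29 and 11.32 in SA, 10.42 and 10.10 in LA and 10.87 and 11.01 in Ctrl. JUN and ATF3 lay 1.61 apart, JUN ranking 52 among the genes nearest to ATF3 and ATF3 ranking 145 among those nearest to JUN. JUND lay 3.09 from ATF3 and 2.66 from JUN.

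**Figure D3:**
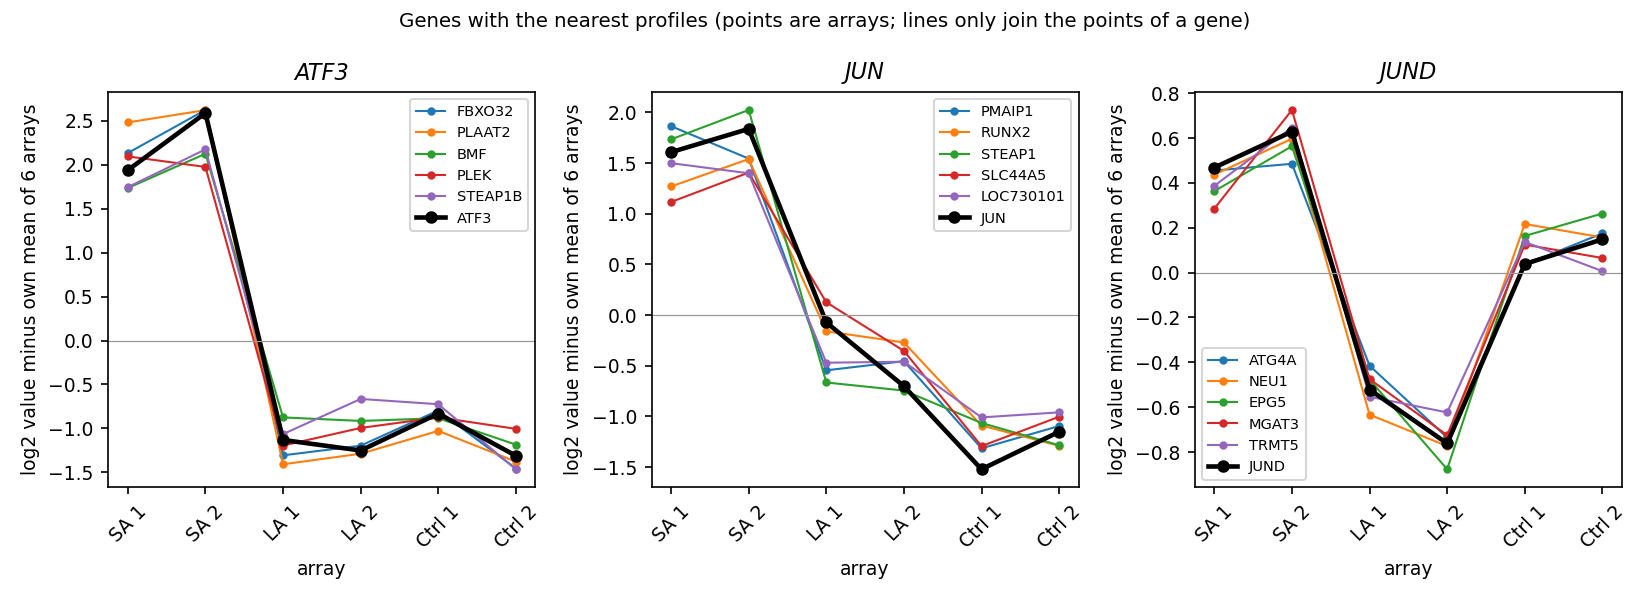
For ATF3, JUN and JUND, the log2 value of the member (black) and of its 5 nearest genes (colours), each minus its own mean, is plotted for the 6 arrays in the order SA, LA and Ctrl. The ATF3 panel has LA level with Ctrl, the JUN panel has LA between SA and Ctrl, and the JUND panel has LA below both.

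Other bZIP genes that can pair with AP-1 proteins were tested for 7 of 14 listed, 3 higher and 1 lower in SA than in Ctrl. Over all genes, for this and the lists below, limma called 6.23% higher and 8.55% lower in SA minus Ctrl. The shares higher and lower were 1.61% and 1.59% in LA minus Ctrl, and 8.70% and 7.24% in LA minus SA. CREB5, an ATF2-like factor, was at 7.02 and 8.10 in SA and 4.77 and 3.93 in Ctrl and rose by 3.21 ± 0.41 (limma adjusted p = 0.0078). Without detection calls, its Ctrl values were not shown to be above background. ATF2, a JUN partner that JNK also phosphorylates, rose by 0.95 ± 0.13. MAF, a large Maf protein overexpressed in some myelomas, was at 10.87 and 10.55 in SA, 14.30 and 14.54 in LA and 12.59 and 12.65 in Ctrl. MAF fell in SA by 1.90 ± 0.17 on the log2 scale and rose in LA by 1.80 ± 0.17 over Ctrl (limma adjusted p = 0.00779), the 1 call of the list there. LA was above SA by 3.71 ± 0.17 for MAF, a sign opposite to that of JUN and ATF3. In LA against SA, CREB5 fell by 2.15 and NFE2L1, a regulator of proteasome genes, by 1.16, and the list had 1 higher and 3 lower. The block left 2 higher and 1 lower in SA minus Ctrl, and 1 higher and 2 lower in LA minus SA. The list median was 0.43, 0.08 and -0.38 in the 3 comparisons.

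Of 16 MAP kinase genes tested, which carry growth and stress signals to AP-1, 1 was higher in SA than in Ctrl, MAP3K1, by 0.85 ± 0.14, and the block did not keep it (limma adjusted p = 0.0723). That share is near the 6.23% of all genes called higher. In LA against Ctrl, 1 was higher and 1 lower, and against SA 2 were higher and 1 lower (1 and 1 with the block). MAPK8, the JNK1 kinase that phosphorylates JUN, was at 13.26 and 13.30 in LA and 11.68 and 11.91 in Ctrl, a rise of 1.48 ± 0.17 (limma adjusted p = 0.014). The SA arrays, at 11.46 and 11.13, lay below Ctrl for MAPK8. MAP3K1, a kinase upstream of JNK, fell in LA by 1.38 ± 0.14 against Ctrl and by 2.23 ± 0.14 against SA, and MAP3K11 rose in LA by 0.62 over SA, lost with the block (limma adjusted p = 0.174). The list medians were 0.03, 0.04 and -0.15.

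Of 9 MAP kinase phosphatases tested, 3 rose in SA over Ctrl, with and without the block. Of all genes, 6.23% were called higher there without the block and 2.90% with it. DUSP5, which acts on ERK, was at 6.88 and 6.32 in SA and 4.98 and 4.65 in Ctrl and rose by 1.79 ± 0.35. DUSP4 rose by 1.70 ± 0.22 and DUSP16, which acts on JNK, by 1.16 ± 0.18. The Ctrl and LA values of DUSP5 and DUSP4 were not shown to be above background. DUSP5 and DUSP4 fell in LA against SA, by 1.70 and 1.31. Limma called 0 of the 9 in LA minus Ctrl, with 1 at an unadjusted p under 0.05, and 0 with the block, with 0 at that p. The share of all genes at that unadjusted p is not given.

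Among activators of FOS and JUN transcription, 2 of 10 rose in SA over Ctrl, beside 6.23% of all genes. MEF2A, which can bind the JUN promoter, was at 14.64 and 15.01 in SA and 13.49 and 13.12 in Ctrl and rose by 1.52 ± 0.20 (limma adjusted p = 0.00782). ELK4, an ETS partner of SRF, rose by 0.54, lost with the block (limma adjusted p = 0.218). In LA, MEF2D fell by 0.93 against Ctrl and was not kept with the block (limma adjusted p = 0.13). Against SA, 3 fell in LA, of which the block kept MEF2A, at -1.30.

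Of 7 tested genes in a list on JUN protein turnover and the COP1 ubiquitin ligase, 2 were higher in SA than in Ctrl, beside 6.23% of all genes. With the block 1 was higher, TRIB1, beside 2.90% of all genes. Turnover of the JUN protein was not measured. In LA, 1 was lower than in Ctrl, and 1 was higher and 1 lower than in SA. TRIB1, a pseudokinase and adaptor of the COP1 ubiquitin ligase, was at 15.00 and 15.21 in SA, 10.42 and 10.41 in LA and 12.56 and 12.28 in Ctrl. It rose in SA by 2.69 ± 0.16 over Ctrl and fell in LA by 2.00 ± 0.16 against Ctrl (limma adjusted p = 0.00162 and 0.00627). LA lay below SA by 4.69 ± 0.16 on the log2 scale. DET1, another part of the COP1 ligase, rose by 0.62 in SA and GSK3B, a kinase of JUN, by 0.70 in LA over SA, and neither was kept with the block (limma adjusted p = 0.157 and 0.132).

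Other immediate early genes were partly raised in SA. Of 9 tested, 4 rose over Ctrl and 0 fell, beside 6.23% and 8.55% of all genes. With the block, 3 rose and 0 fell, and the list median was 0.51. KLF6, a zinc finger factor, was at 13.54 and 13.80 in SA and 11.95 and 11.65 in Ctrl and rose by 1.87 ± 0.17 (limma adjusted p = 0.0035). ZFP36L1, which promotes decay of AU-rich mRNAs, rose by 1.40 ± 0.17 and KLF10 by 1.17 ± 0.23. EGR1, EGR3, KLF4, NR4A1, NR4A2, NR4A3 and CCN1 lay under the filter, like FOS and FOSB. IER2 differed in pattern, at 7.14 and 6.76 in LA, 5.73 and 5.86 in SA and 5.59 and 5.69 in Ctrl, and rose in LA by 1.31 over Ctrl, lost with the block (limma adjusted p = 0.0525). In LA against SA, 2 of the list were higher and 3 lower, 1 and 2 with the block, with KLF6 at -1.67.

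ATF3 is a target of the ATF4 branch of the stress response, of which 10 genes were tested. Beside 6.23% and 8.55% of all genes called without the block, 2 rose and 1 fell in SA against Ctrl, with and without it. These were ASNS, which makes asparagine (1.86 ± 0.25), CHAC1, a glutathione-degrading enzyme (2.30 ± 0.21), and the mTORC1 inhibitor DDIT4 (-1.73 ± 0.16). In LA, CHAC1 was at 7.23 and 7.05, below the Ctrl values of 8.14 and 8.53, whereas ATF3 in LA lay inside the Ctrl range. CHAC1 fell in LA by 1.20 against Ctrl and SESN2, a stress-induced sestrin, by 0.92, and the block kept neither (limma adjusted p = 0.0992 and 0.148). In LA against SA, 3 genes fell and 1 rose, with CHAC1 at -3.50, ASNS at -2.57 and SESN2 at -1.35. The list medians were 0.41, -0.39 and -0.35.

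Of 13 known AP-1 target genes tested, 1 rose and 1 fell in SA against Ctrl, beside 6.23% and 8.55% of all genes. The list median of -0.05 was close to the -0.04 of all genes. TNFAIP3, an inhibitor of NF-kappaB signalling, was at 17.23 and 17.36 in SA and 16.42 and 16.10 in Ctrl and rose by 1.04 ± 0.16 (limma adjusted p = 0.0137). SPP1, the osteopontin gene, was at 3.88 and 3.42 in SA, 3.41 and 3.88 in LA and 6.96 and 6.98 in Ctrl. As measured, it fell by 3.32 ± 0.23 in each acid group. The acid values, between 3.41 and 3.88, lie around the array median and were not shown to be above background, so the fall of the transcript may be larger than measured. In LA against Ctrl, 1 rose and 2 fell (1 and 1 with the block), and in LA against SA 2 rose and 2 fell. In LA over Ctrl the adhesion receptor CD44 rose by 1.56 ± 0.23, and VEGFA fell by 0.84, lost with the block (limma adjusted p = 0.176). The haem oxygenase HMOX1 was at 6.33 and 6.76 in LA and 5.16 and 4.55 in SA, a rise of 1.69 ± 0.25. Its SA values were not shown to be above background. MMP9, MMP10, IL6, CXCL8, CCL2, TIMP1 and IL2 lay under the filter.

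Of 6 genes that work with BATF in B lineage cells, 1 rose and 1 fell in SA against Ctrl, beside 6.23% and 8.55% of all genes. With the block 0 were called there, and 3 had an unadjusted limma p under 0.05, a count without the share of all genes beside it. Without the block, 1 rose in LA against Ctrl. In LA against SA, 2 rose and 1 fell, 1 and 1 with the block, which did not keep IKZF1 (difference 0.82, limma adjusted p = 0.0667 with the block). IRF8 was at 7.60 and 7.67 in LA and 6.32 and 6.45 in Ctrl and rose by 1.25 ± 0.14 in LA (limma adjusted p = 0.0138, and 0.0504 with the block, where it was not called). IKZF3, the lymphoid factor Aiolos, fell in LA against SA by 1.61 ± 0.22. PRDM1, the plasma cell regulator BLIMP1, rose by 0.60 and IKZF1, Ikaros, fell by 0.57 in SA against Ctrl, both lost with the block (limma adjusted p = 0.168 and 0.196).

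**Figure D4:**
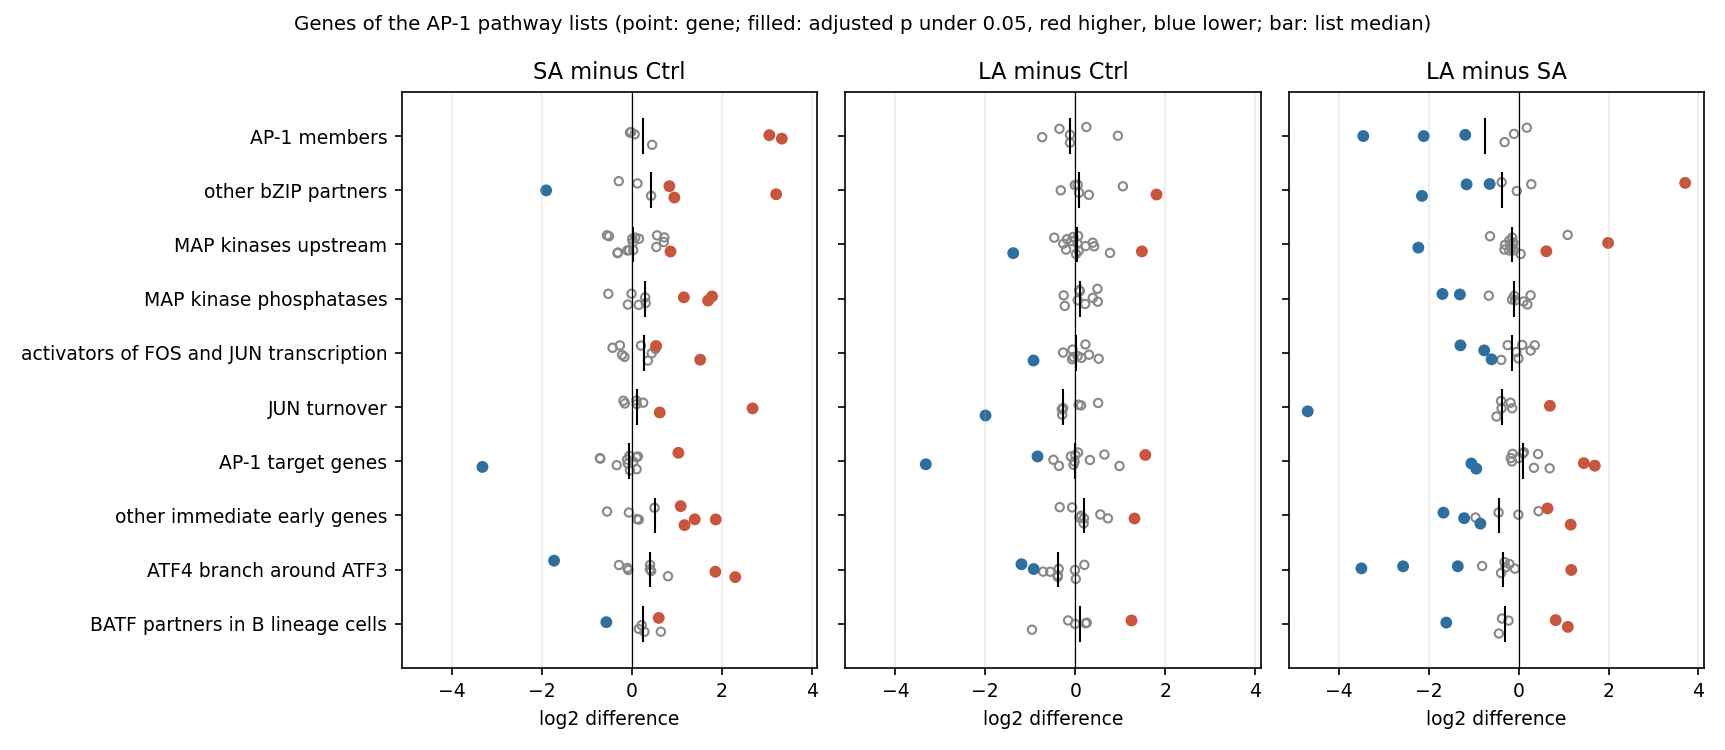
Each point is the log2 difference of 1 tested gene in a pathway list, for the 3 comparisons, filled where the limma adjusted p was under 0.05 (red higher, blue lower), with a bar at the list median and the AP-1 members in the top line. Every list has a filled point above 0 in SA minus Ctrl, and AP-1 target genes have a median near 0 in every panel.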

How the data were processed

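The authors deposited 1 table of log2 values, taken to be base 2 from their range of 1.93 to 20, for 135574 probe sets on 6 arrays. Per the submitters' processing notes, RMA and the Transcriptome Analysis Console were used; the sources used here give no versions, parameters, log base or genome build. The folds given rest on base 2. Symbols came from the platform annotation: 36176 probe sets had 1 symbol, 1119 several and 98279 none, and 25516 of 25555 with a gene ID matched RefSeq (GRCh38.p14). The brightest probe set per symbol was used. Genes with a mean over the 6 arrays at or above 3.77, 21070 in all, were tested in R 4.3.3 with limma 3.58.1, with group means over 6 arrays, two-sided moderated tests and Benjamini-Hochberg adjustment over all genes tested. Calls were made at an adjusted p below 0.05. The number of arrays limits the precision.

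The members, lists and tests were chosen with earlier results of these data known. Named genes are the members, up to 3 called genes with the largest difference per list and comparison, the 5 nearest profiles of the 3 members with the largest differences, and the members next to the filter. Genes beside a member were added after the values were seen. The code was tested on simulated data. Alternatives covered the replicate block, filters, variance trend, samples in the fit, probe set choice, normalization and leaving out each array.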

Additional observations from a re-analysis of the deposited data

Results flagged for a closer look

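The AP-1 genes ATF3, JUN and JUND differed between the acid groups by the test of LA minus SA itself, which is also the test that their differences from the shared Ctrl arrays were unequal. The log2 difference was -3.46 for ATF3, -2.11 for JUN and -1.19 for JUND, with limma adjusted p-values of 0.00138, 0.005 and 0.00647. Time in culture differs between LA and SA, and pHe does not. Groups of 2 arrays are too small for a check of single outlying samples.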

How the results depend on the processing

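The AP-1 genes called numbered 3 in LA minus SA, 2 in SA minus Ctrl and 0 in LA minus Ctrl under each of the 12 alternatives run per comparison. The called differences kept their sign and their side of the threshold: JUN from 2.87 to 3.25 and ATF3 from 3.02 to 3.66 in SA minus Ctrl, and JUN from -2.43 to -1.79, ATF3 from -3.78 to -3.13 and JUND from -1.32 to -1.06 in LA minus SA. Only the normalizations and leaving out an array could move these differences. The block, the filters, the variance trend and the samples in the fit left each difference as it was. Each member had 1 probe set, so averaging probe sets could not change its values. The signs that turned belonged to small differences that were not called. With 1 array left out at a time, SA minus Ctrl ran from -0.10 to 0.07 for JUNB (0.01 without SA replicate 2, 0.07 without Ctrl replicate 2), from -0.21 to 0.13 for FOSL2 (0.02 without SA replicate 1, 0.13 without Ctrl replicate 2) and from -0.20 to 0.34 for BATF3 (-0.20 without SA replicate 2). LA minus Ctrl ran from -0.36 to 0.12 for ATF3 (0.12 without Ctrl replicate 1), and LA minus SA from -0.09 to 0.45 for BATF3 (-0.09 without SA replicate 1, -0.03 without LA replicate 1). The cause was not tested.

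Counts over all genes moved more. For SA against Ctrl, LA against Ctrl and LA against SA, in that order, the counts of 3113, 675 and 3360 genes became 1347, 279 and 1823 with the replicate block, which has fewer residual degrees of freedom. Whether same-numbered arrays deviated together could not be checked. Their replicate differences correlated at -0.565 between SA and Ctrl, -0.469 between LA and Ctrl and -0.413 between SA and LA, but with 1.18% of the within-group spread going with replicate number the 3 differences nearly cancel, which by itself gives negative correlations. Leaving out 1 array gave 1134 to 2036, 195 to 253 and 1503 to 2256 genes, each with fewer arrays in the fit; a group left with 1 array was assumed to vary like the others. Small differences of genes near 3.77 are limited by signal over background.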
